A study of Mus musculus with 12 samples.

Results

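The Cyp2d family of mouse liver cytochrome P450 genes was described here through 7 members, Cyp2d9, Cyp2d10, Cyp2d11, Cyp2d22, Cyp2d26, Cyp2d34 and Cyp2d40, chosen by their gene symbols out of 52636 genes in the count tables. The data were bulk RNA-seq counts from 12 livers (left lateral lobe) of 16-week-old male C57Bl/6J mice. VDD-F1 (n = 6) were offspring of dams that ate a vitamin D deficient diet, with calcium gluconate, before mating and through pregnancy, and VDS-F1 (n = 6) were offspring of dams kept on a vitamin D sufficient diet. All dams ate the sufficient diet after delivery and all offspring ate it after weaning, so the groups differed in the maternal diet and not in the diet at dissection. The sources do not say which mice were littermates, so p-values measure the spread between these 12 mice, some of which may share a dam. In VDD-F1 all 5 members that could be tested had lower group means, with log2-fold changes from -0.22 for Cyp2d26 to -0.99 for Cyp2d9, but none passed the adjusted threshold over all genes.

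CYP2D enzymes are heme monooxygenases of the endoplasmic reticulum that are abundant in hepatocytes. They take electrons from the P450 reductase Por and from cytochrome b5 and hydroxylate drugs, steroids and other lipids. The human member CYP2D6 is a main drug-metabolizing enzyme, and the porcine member CYP2D25 hydroxylates vitamin D. Humans keep few CYP2D genes, whereas the mouse has a cluster of them. Cyp2d9 encodes a testosterone hydroxylase that is higher in male than in female liver and depends on the pulsatile growth hormone pattern of males and on Stat5b.

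The cluster held 10 genes with a Cyp2d symbol and ran over 424 kb of chromosome 15 (GRCm38, GENCODE release M21, chr15:82370527-82794294). Cyp2d9 and Cyp2d12 lie on the plus strand and the other 8 on the minus strand. From left to right the members are Cyp2d22 (82370527 to 82380260), Cyp2d11 (82389154 to 82394022), Cyp2d10 (82402846 to 82407195), Cyp2d9 (82433437 to 82456845), Cyp2d34 (82615965 to 82620946), Cyp2d40 (82759833 to 82764183) and Cyp2d26 (82790101 to 82794294). The other 3 genes of the cluster are protein-coding Cyp2d12 and the pseudogenes Cyp2d37-ps and Cyp2d41-ps.

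The stretch of promoter just before the start of transcription is shown for the 5 members in the RefSeq promoter table (GRCm38.p6), because it shows how alike the genes are at the place where transcription starts. Cyp2d9 and Cyp2d10 are among the highest members in liver, Cyp2d11 is nearly silent there, and Cyp2d26 and Cyp2d40 lie at the right end of the cluster. Each sequence is 100 bases, 5′ to 3′ on the transcribed strand, and ends with the TATA-like run TTTATAAGG. Capitals mark that run and any direct repeat of AGGNCA with a single A as spacer, an arrangement of the kind that the hepatocyte nuclear receptor Hnf4a binds.
Cyp2d9 (chr15:82452258-82452357, plus strand): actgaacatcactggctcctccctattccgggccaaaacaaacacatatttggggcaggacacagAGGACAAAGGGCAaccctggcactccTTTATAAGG
Cyp2d10 (chr15:82407217-82407316, minus strand): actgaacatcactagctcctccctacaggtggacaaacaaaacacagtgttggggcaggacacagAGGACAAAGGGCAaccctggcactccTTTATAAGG
Cyp2d11 (chr15:82394057-82394156, minus strand): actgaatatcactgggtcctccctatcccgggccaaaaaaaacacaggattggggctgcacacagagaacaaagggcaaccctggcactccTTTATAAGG
Cyp2d40 (chr15:82764205-82764304, minus strand): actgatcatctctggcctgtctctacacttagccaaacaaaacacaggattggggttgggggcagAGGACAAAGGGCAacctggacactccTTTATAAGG
Cyp2d26 (chr15:82794268-82794367, minus strand): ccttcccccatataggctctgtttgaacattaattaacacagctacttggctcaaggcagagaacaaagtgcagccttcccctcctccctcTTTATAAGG

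The direct repeat was found in the windows of Cyp2d9, Cyp2d10 and Cyp2d40, and in 0.0944% of the 32851 promoter windows of 300 bases in the table, searched on both strands. The nearest stretch in Cyp2d11 differed from it by the single substitution G3A (repeat base, position from the 5′ end of the repeat, window base), and a stretch of Cyp2d26 that begins 177 bases before the start differed by 2 substitutions, G3A and C5G. Another stretch of Cyp2d26, agaacaaagtgca within the printed bases, also differed by 2 substitutions. The TATA-like run was found in all 5 windows and in 0.28% of all windows. It began 28 to 43 bases before the RefSeq start of 4 members, and 91 before that of Cyp2d40, whose GENCODE start lies only 30 bases after it. In Cyp2d9 and Cyp2d26 the run lies after the GENCODE start instead. Cyp2d11 held it a second time on the opposite strand. Both patterns were added to the search after the windows had been read. Of the 5 patterns chosen earlier, none had a match in any of the 5 windows: TTCNNNGAA for Stat5 (8.3% of all windows), CAAAGTCCA for Hnf4a (0.475%), TTGCGCAA for C/EBP proteins (0.183%), a direct repeat of AGGTCA with any 3 bases as spacer for the vitamin D receptor (0.00609%) and CACGTG, the E-box (7.15%). These are matches of letters in a short window and say nothing about which factors bind.

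Over the whole 300-base windows, Cyp2d9 was 84.5% identical to Cyp2d11 and 82.9% identical to Cyp2d10, and Cyp2d10 was 76.8% identical to Cyp2d11. Cyp2d26 and Cyp2d40 were 41.3% to 54.3% identical to the others and to each other. The windows are set by the RefSeq starts, and the TATA-like run begins 91 bases before that of Cyp2d40, against 28 to 43 for the others. The window of Cyp2d40 is thus offset, which can lower its identities. Identity of the stretches lined up at the run was not computed. The coding transcripts of Cyp2d9, Cyp2d10 and Cyp2d11 were closer than their windows. Cyp2d9 and Cyp2d11 shared 86.7% of aligned bases, Cyp2d9 and Cyp2d10 88.4%, and Cyp2d10 and Cyp2d11 90.7%. Reads from such near-copies can map to more than a single place, and reads that did so were not counted. Of all 100-base windows of a transcript, the share found in the annotated transcripts of no other gene was 90.1% for Cyp2d9, 85.1% for Cyp2d10 and 87.8% for Cyp2d11. It was 99.6% to 100% for Cyp2d22, Cyp2d26, Cyp2d34 and Cyp2d40. Counts of the first 3 genes are therefore the less certain ones, with 4.03% of the windows of Cyp2d9 also found in Cyp2d10.

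The libraries held 25897868 to 36403413 fragments, of which 14275793 to 20815066 were counted on genes of the sequenced strand. In VDS6 11.1% of fragments lay outside genes, against 2.52% to 4.94% in the other 11 libraries. All 8 hepatocyte markers were above 0 in every library. For some comparisons the mice were also split by whether a liver weight is recorded for them in the study's supplement, taking its mouse numbers to be those of the sample titles. The supplement records weights for VDD4, VDD5, VDD6, VDS3, VDS4, VDS5 and VDS6, and gives none for the other 5 mice. What else set these mice apart is not stated.

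Cyp2d9 was the member with the widest range among mice. In VDS-F1 its level was lowest at 987 CPM (counts scaled to a library of 1000000 and by edgeR's TMM factors), with a median of 1277 and a highest value of 1419. In VDD-F1 the lowest value was 231 CPM in VDD2, the median 515 and the highest 1336 in VDD3. VDD4, VDD5 and VDD6 lay close together at 516, 514 and 417 CPM, and VDD1 was at 761. Thus 5 of 6 VDD-F1 mice were below every VDS-F1 mouse, and VDD3 stood within the VDS-F1 range. The means were 1246 ± 149 CPM for VDS-F1 and 629 ± 387 for VDD-F1 (SD, n = 6), and the coefficient of variation was 61.5% in VDD-F1 against 11.9% in VDS-F1.

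Cyp2d10, a close copy of Cyp2d9, spread less. Its VDS-F1 values ran from 510 to 669 CPM with a median of 612, and its VDD-F1 values from 362 in VDD2 to 652 in VDD3 with a median of 472. Of the VDD-F1 mice 4 lay below all VDS-F1 mice. Cyp2d22, often taken as the mouse counterpart of human CYP2D6, ran from 224 to 276 CPM in VDS-F1, with a median of 264. In VDD-F1 it ran from 150 in VDD2 to 260 in VDD3, with a median of 205, and again 4 of 6 mice lay below the VDS-F1 range. Cyp2d26 ran from 800 to 921 CPM (median 885) in VDS-F1 and from 624 to 1051 (median 706) in VDD-F1. Here 5 VDD-F1 mice lay below every VDS-F1 mouse, while VDD3 lay above all 6 of them.

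Cyp2d40 was the lowest of the 5 tested members. VDS-F1 mice had 36.2 to 82.2 CPM (median 49.6) and VDD-F1 mice 19.8 to 63.3 CPM (median 25.6). Its order of mice differed in part from that of the other members: VDS2 and VDS1 were highest at 82.2 and 73.2 CPM, and among VDD-F1 VDD1 was highest at 63.3 CPM, with VDD3 next at 48.7. Cyp2d9 in VDS2, by contrast, had the lowest value of its group, while VDS1 was second highest of its group for Cyp2d9 and Cyp2d10 too.

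Cyp2d11 and Cyp2d34 were hardly detected. Cyp2d11 had 32 counts in all, between 0 and 9 per library, 11 in VDD-F1 and 21 in VDS-F1. Cyp2d34 had a single count, in 1 of 12 libraries. Both had a mean count below 12 and were left out of the main test, so 5 of 7 members entered it. With looser filters on low counts edgeR called neither: Cyp2d11 had -0.88 (SE 0.85, adjusted p = 0.686) with a total count of at least 12, and Cyp2d34, at its single count, allows no fold. At this depth a change in either gene was not detectable. Cyp2d12, which is not a member, was as low, with 43 counts.

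**Figure D1:**
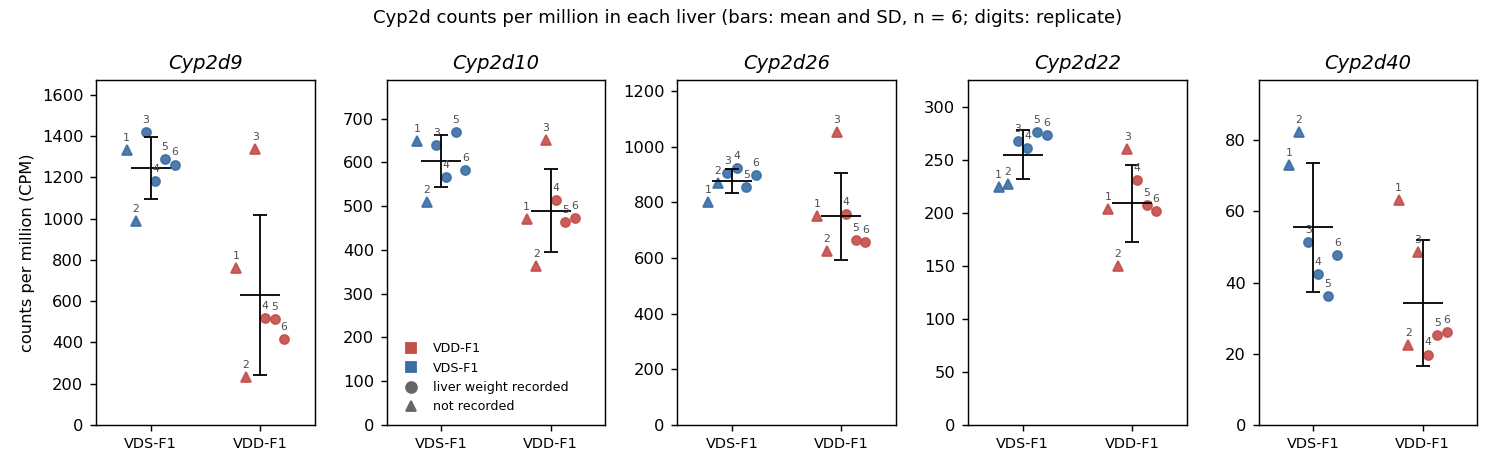
CPM of the 5 tested members in each liver, with 1 panel per gene and the vertical axis starting at 0; points are mice (digits: replicate number; circles: liver weight recorded; triangles: not recorded) and bars give mean and SD of 6 mice. For Cyp2d9, VDD3 at 1336 CPM sits among the VDS-F1 mice while the other 5 VDD-F1 mice lie between 231 and 761 CPM.

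Per kilobase of annotated exon the order in VDS-F1 was Cyp2d26 (488 ± 24.5 CPM per kb), Cyp2d9 (469 ± 55.9), Cyp2d10 (366 ± 36.4), Cyp2d22 (65.2 ± 5.97) and Cyp2d40 (30.8 ± 10.1). The first pair differed by less than its spread. In VDD-F1 the same scale gave 419 ± 87.5 for Cyp2d26, 297 ± 57.2 for Cyp2d10, 237 ± 145 for Cyp2d9, 53.4 ± 9.31 for Cyp2d22 and 19.0 ± 9.76 for Cyp2d40, so the mean of Cyp2d9 came after that of Cyp2d10, again within the spread. The place of Cyp2d9 in the order depends on its gene model. GENCODE starts the gene far upstream of the RefSeq start, and with the length of the longest transcript its VDS-F1 level was 728 CPM per kb, the highest of the family.

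The question asked of the diet groups was whether maternal vitamin D deficiency left a difference in adult liver. edgeR's quasi-likelihood test over 12453 genes called 0 of 5 members at an adjusted p under 0.05. It called 0.0241% of all genes (3 genes) as lower in VDD-F1 and 0.0402% (5 genes) in either direction. At an unadjusted p under 0.05, 4 of 5 members were lower in VDD-F1, all but Cyp2d26, against 6.29% of all genes. All 5 had a negative log2-fold change, as did 49.2% of all genes, and their median was -0.30 against 0.00 over all genes. None had groups that did not overlap, whereas 0.57% of all genes had every VDD-F1 mouse below every VDS-F1 mouse.

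Cyp2d9 differed by a log2-fold change of -0.99 (SE 0.31), or 0.505 of the VDS-F1 level, with a Benjamini-Hochberg adjusted p of 0.144 in edgeR's test. It ranked 543 by p among all genes. The interval of 2 standard errors ran from -1.60 to -0.37. Cyp2d40 followed at -0.70 (SE 0.29, adjusted p = 0.265), with an interval from -1.29 to -0.12. Cyp2d10 and Cyp2d22 differed by -0.30 (SE 0.13, adjusted p = 0.265) and -0.29 (SE 0.12, adjusted p = 0.255). The log2-fold change of Cyp2d26 was the smallest, at -0.22 (SE 0.12, adjusted p = 0.390), with an interval that reached 0.02 above 0.

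VDD3 decided the call for Cyp2d9. Without this mouse, which the study labels VDD-F1 like the other 5, edgeR gave Cyp2d9 a log2-fold change of -1.36 (SE 0.23) and an adjusted p of 0.0307, with 0.353% of all genes called lower. Leaving out any of the other 11 mice gave no call for any member. limma's voom with sample quality weights, which gives less weight to mice that fit their group poorly, called Cyp2d9 at -1.21 (adjusted p = 0.0155) and no other member, with 1.9% of all genes called lower. DESeq2 called 0 members (adjusted p for Cyp2d9 = 0.111) and 1.24% of all genes lower; its unadjusted p was under 0.05 for the same 4 members and, in that direction, for 6.8% of all genes.

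In the 7 mice with a recorded liver weight (3 VDD-F1, 4 VDS-F1) all 5 members passed the edgeR test and were lower in VDD-F1, against 5.12% of all genes called lower. In these mice Cyp2d9 fell by 1.42 on the log2 scale (SE 0.10, adjusted p = 7.9e-06), to 0.374 of the VDS-F1 level, and Cyp2d40 fell by 0.91 (SE 0.14, adjusted p = 0.00216). Cyp2d26, Cyp2d10 and Cyp2d22 fell by 0.37, 0.34 and 0.34 (SE 0.08, 0.09 and 0.08), with adjusted p-values of 0.0149, 0.0284 and 0.0208. All 5 had every VDD-F1 mouse below every VDS-F1 mouse, as had 11.4% of all genes. For Cyp2d9 the gap was the widest, with 417 to 516 CPM in VDD-F1 and 1185 to 1419 CPM in VDS-F1.

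Markers of other liver cells separated the same 7 mice by diet. The summed level of 6 stellate cell markers was 268 to 333 CPM in the 3 VDD-F1 mice and 148 to 198 CPM in the 4 VDS-F1 mice, and that of 6 cholangiocyte markers was 58.2 to 72.4 CPM and 27.8 to 44.2 CPM. The sum of 6 macrophage markers lay the other way, at 86.2 to 135 CPM in VDD-F1 and 141 to 187 CPM in VDS-F1. The sum of 8 hepatocyte markers was higher in VDD-F1 too, at 117818 to 119668 CPM against 92738 to 101930 CPM, and so was that of 7 lymphocyte markers, at 3.58 to 3.84 CPM against 1.57 to 3.07 CPM, while the 6 endothelial markers overlapped. In these mice edgeR called 3 of 6 stellate markers higher, namely the collagen gene Col1a1 (2.67, adjusted p = 3.1e-05), Dcn and Pdgfrb, and 2 of 5 tested cholangiocyte markers, Spp1 and Epcam. It called 3 of 8 hepatocyte markers higher (Alb, Ahsg and Trf), 2 of 6 macrophage markers lower (Clec4f and Cd5l), 1 of 6 endothelial markers lower (Stab2) and neither of 2 tested lymphocyte markers, against 5.85% of all genes higher and 5.12% lower. The part of these cell types in the lower Cyp2d levels of the 7 mice was not tested.

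The 5 mice without a recorded weight (3 VDD-F1, 2 VDS-F1) gave no call for any member nor for any gene (0% of all genes), with 1.73% of all genes lower at an unadjusted p under 0.05 and no member among them. The log2-fold changes there were -0.58 (SE 0.61) for Cyp2d9, -0.79 (SE 0.38) for Cyp2d40, -0.23 (SE 0.27) for Cyp2d10, -0.14 (SE 0.24) for Cyp2d22 and -0.05 (SE 0.25) for Cyp2d26. Cyp2d40 alone had groups that did not overlap there, 22.5 to 63.3 CPM against 73.2 to 82.2 CPM, as had 9.5% of all genes. The diet by set interaction, which tests whether the diet difference was unequal in these sets of mice, called 0 of 5 members (adjusted p from 0.760 to 0.967; 0.0883% of all genes in either direction). None of the 5 had an unadjusted interaction p under 0.05, as 9.01% of all genes had, and DESeq2 called none either, against 1.11% of all genes. The interval of 2 standard errors for the interaction of Cyp2d9 ran from -2.04 to 0.36 on the log2 scale.

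**Figure D2:**
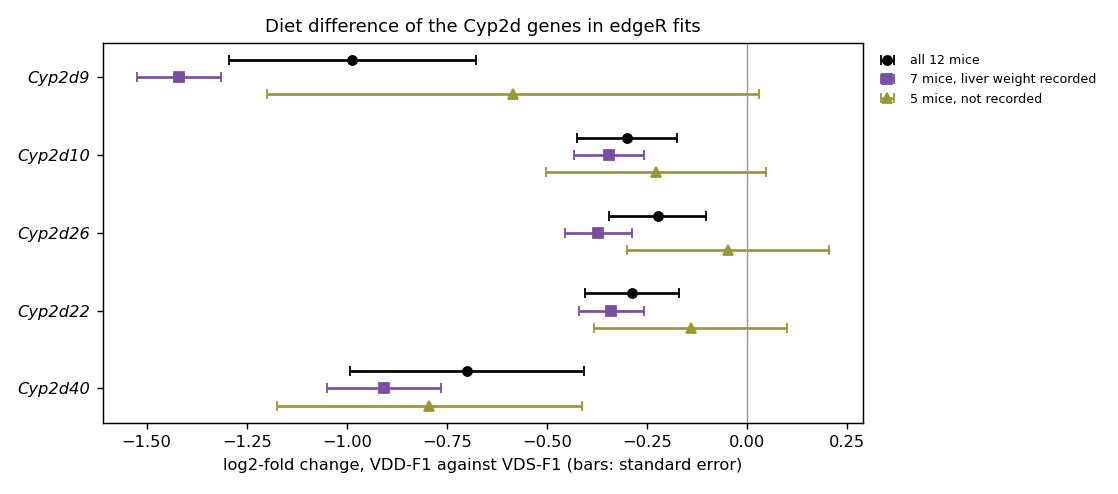
Log2-fold change of VDD-F1 against VDS-F1 for the 5 tested members in edgeR fits of all 12 mice, the 7 with and the 5 without a recorded liver weight; points are estimates and bars 1 standard error. All 15 estimates lie below 0, and those of Cyp2d9 run from -1.42 to -0.58.

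The sets themselves differed in Cyp2d40. With the diet in the model it was lower in the mice with a recorded weight by a log2-fold change of -0.87 (SE 0.19, adjusted p = 0.0334 by edgeR), and DESeq2, which called 4.67% of all genes, gave an adjusted p of 0.000865. It was the only one of 5 members called between the sets, where edgeR called 2.46% of all genes in either direction. The levels behind this were 36.2 to 51.4 CPM against 73.2 to 82.2 CPM in VDS-F1, and 19.8 to 26.0 CPM against 22.5 to 63.3 CPM in VDD-F1. With the set as a covariate the diet difference of Cyp2d40 was -0.86 (SE 0.19, adjusted p = 0.0692) and that of Cyp2d9 -1.08 (SE 0.32, adjusted p = 0.115). That fit called 0 members and 0.104% of all genes lower, and 4 members, all but Cyp2d26, had an unadjusted p under 0.05, against 7.32% of all genes lower at that threshold.

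Within the family the makeup shifted among mice. The 7 members together took 0.211 ± 0.049% of the counts in VDD-F1 and 0.299 ± 0.024% in VDS-F1 (SD, n = 6). Of the family's level per kilobase, Cyp2d9 made up 21.5 ± 6.86% in VDD-F1 and 32.9 ± 2.13% in VDS-F1. The ratio of Cyp2d9 to Cyp2d10 counts, which is free of library scaling, was 1.93 to 2.22 in VDS-F1. In VDD-F1 it was 2.05 in VDD3, between 0.637 and 1.11 in the lowest 4 mice, and 1.62 in VDD1. The ratio of Cyp2d9 to Cyp2d26 counts was 1.13 to 1.67 in VDS-F1 and 0.369 to 1.27 in VDD-F1. By contrast, the ratio of Cyp2d10 to Cyp2d26 was 0.586 to 0.810 in VDS-F1 and 0.580 to 0.722 in VDD-F1, and that of Cyp2d22 to Cyp2d26 was 0.291 ± 0.021 and 0.281 ± 0.032. Ratios with Cyp2d40 were wider in both groups: Cyp2d9 to Cyp2d40 was 24.6 ± 8.32 in VDS-F1 and 18.7 ± 7.17 in VDD-F1, and Cyp2d40 to Cyp2d26 was 0.064 ± 0.023 and 0.045 ± 0.020. These ratios were chosen with the values in view and were not tested.

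**Figure D3:**
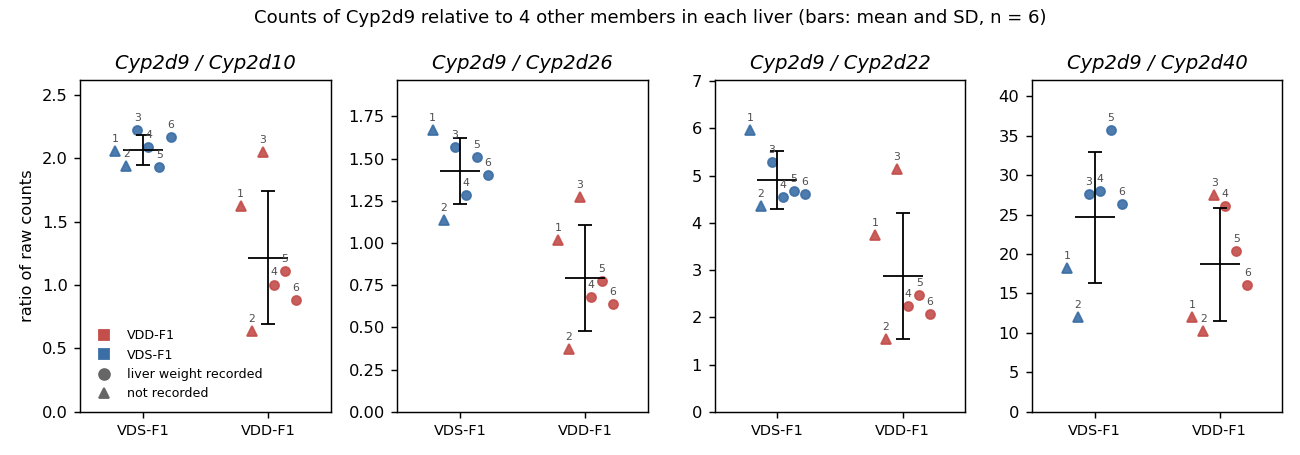
Ratio of raw Cyp2d9 counts to those of Cyp2d10, Cyp2d26, Cyp2d22 and Cyp2d40 in each liver, each vertical axis starting at 0; points are mice (circles: liver weight recorded; triangles: not recorded) and bars mean and SD of 6 mice. The ratio to Cyp2d10 stays between 1.93 and 2.22 in VDS-F1 and spreads from 0.637 to 2.05 in VDD-F1.

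Across the 12 libraries the members other than Cyp2d40 varied alike. Pearson's r of log2 CPM was 0.92 for Cyp2d9 with Cyp2d10, 0.89 with Cyp2d22 and 0.89 with Cyp2d26, and after the group means had been removed these were 0.88, 0.81 and 0.85. Cyp2d40 had r = 0.73 with Cyp2d9 and 0.38 with Cyp2d22, or 0.54 and 0.02 within the groups. These are descriptions over 12 points that share libraries, depth and diet groups.

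The genes most like each member in this measure were picked from all genes tested, members aside. Cyp2d9 was most like Cyp27a1 (r = 0.97), the mitochondrial sterol hydroxylase of bile acid synthesis that can also hydroxylate vitamin D, then Apeh, an acylpeptide hydrolase (0.96), and Cyp2c54, a P450 of the 2C family (0.95). Cyp27a1 stood at 193 CPM in VDD2, at 293 to 318 in VDD4 to VDD6, at 423 and 427 in VDD1 and VDD3, and at 400 to 473 in VDS-F1. Its lowest mice were thus those of Cyp2d9, although it set VDD1 closer to VDS-F1. Cyp2d10 was most like F13b, a coagulation factor subunit (0.94), Apeh and the mitochondrial aspartate and glutamate carrier Slc25a13. Cyp2d22 was most like Mrpl38, Atg7 and Dpys (0.95 for each), and Cyp2d26 like Lmf1 (0.96), the flavin monooxygenase Fmo1 (0.95) and Pdhx (0.94).

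Cyp2d40 again kept other company. Its closest genes were the acid phosphatase Acpp (0.95), the fructose kinase Khk (0.94) and the monooxygenase-like Moxd1 (0.93). Khk was at 413 and 414 CPM in VDD3 and VDD1 and at 136 to 164 in the other 4 VDD-F1 mice, and at 354 and 438 in VDS1 and VDS2 against 230 to 288 in the other 4 VDS-F1 mice. Moxd1 was at 90.8 and 79.4 CPM in VDS1 and VDS2 and at 0 to 4.42 in the other 10 mice. None of these 14 genes passed edgeR's diet test over all 12 mice, 6 were lower at an unadjusted p under 0.05 (6.29% of all genes), and DESeq2 called Cyp2c54 (adjusted p = 0.0271). Since r was taken over both diet groups, the choice itself favours genes that differ in the direction of the members, and nothing is read from this count.

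**Figure D4:**
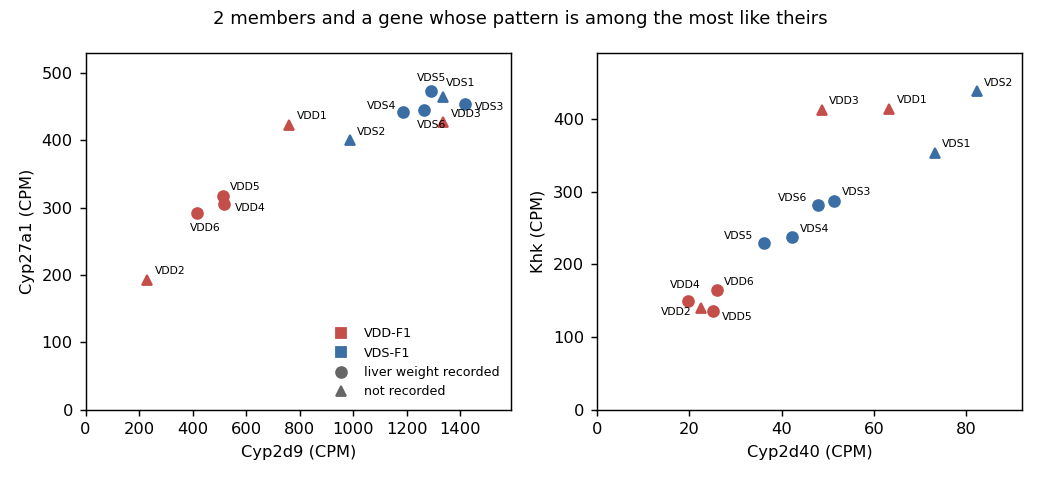
CPM of Cyp27a1 against Cyp2d9 (left) and of Khk against Cyp2d40 (right), all axes starting at 0; each point is a mouse, coloured by diet group, with circles for a recorded liver weight and triangles for none. VDD2, VDD4, VDD5 and VDD6 lie lowest on both axes of both panels, and VDS2 is highest in the right panel.

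Among the other genes of the cluster, the transcribed pseudogene Cyp2d37-ps had 6.19 to 10.3 CPM in VDS-F1. In VDD-F1 it had 3.39 to 15.3 CPM, the highest value being that of VDD1, a log2-fold change of -0.51 (SE 0.34, adjusted p = 0.497). Without VDD1 it was called, at -1.06 (adjusted p = 0.00981; 0.915% of all genes called lower), and it was also called in the mice with a recorded weight (-1.06, adjusted p = 0.00702). Cyp2d41-ps stayed between 0.280 and 1.96 CPM and was called in no fit. Within 500 kb of either end of the cluster 20 of 30 other protein-coding genes were tested. Of these edgeR and DESeq2 called 0, 1 was lower at an unadjusted p under 0.05 (6.29% of all genes), and 16 had lower means in VDD-F1 (49.2% of all genes). Their median log2-fold change was -0.05. In the mice with a recorded weight 1 was called lower and 1 higher, against 5.12% and 5.85% of all genes. The gene with the smallest p was Ccdc134, left of the cluster, at -0.89 (adjusted p = 0.136).

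**Figure D5:**
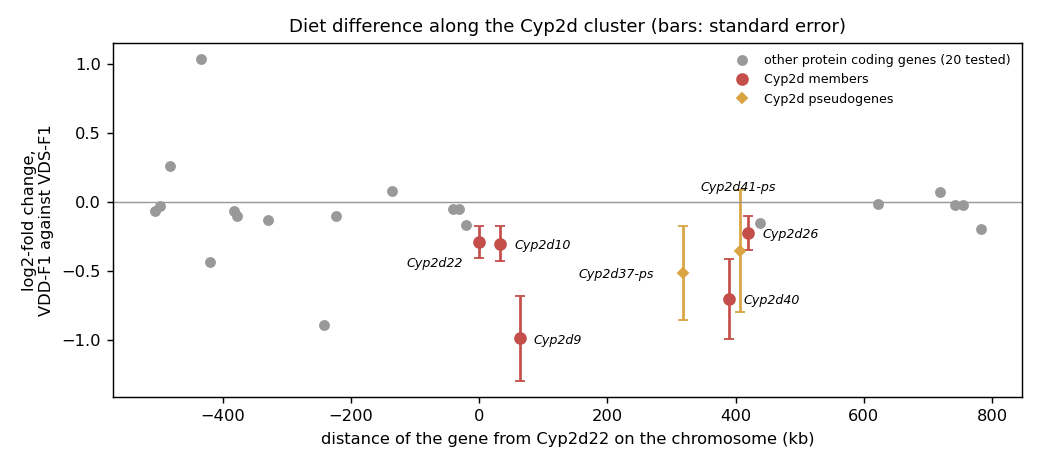
Log2-fold change of VDD-F1 against VDS-F1 along the cluster, plotted against distance from the left end of Cyp2d22 in kilobases; red points are the 5 tested members, diamonds the pseudogenes, grey points the 20 tested neighbours, and bars 1 standard error for Cyp2d genes. The members lie from -0.99 to -0.22, and 16 of the 20 grey points lie below 0, against 49.2% of all genes.

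Genes that serve P450 enzymes were listed as electron donors, heme synthesis and heme breakdown. Of 15 tested, 11 had lower means in VDD-F1 and the median log2-fold change was -0.18. edgeR and DESeq2 called 0, and 4 were lower at an unadjusted p under 0.05: Alad and Cpox of heme synthesis (-0.31, adjusted p = 0.133, and -0.33, adjusted p = 0.280), the electron donor Cyb5a (-0.30, adjusted p = 0.223) and the biliverdin reductase Blvrb (-0.36, adjusted p = 0.235). Por, the main electron donor, was at 296 CPM for VDS-F1 and 262 for VDD-F1 (-0.18, SE 0.25, adjusted p = 0.778). In the mice with a recorded weight 5 of 15 were called lower and 0 higher, against 5.12% and 5.85% of all genes.

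The transcription factors of hepatocytes were 20, all tested. edgeR called 0, and DESeq2 called 2 lower, against 1.24% of all genes, among them Hlf, a clock-controlled bZIP factor. Lower means were found for 18 (median -0.23), against 49.2% of all genes. Hlf (-0.52, adjusted p = 0.103) and the xenobiotic receptor Nr1i3 (-0.83, adjusted p = 0.273) had among the smallest edgeR p-values. In all, 4 were lower at an unadjusted p under 0.05, against 6.29% of all genes, and 12 of 20 were called lower in the mice with a recorded weight, against 5.12% of all genes. Some of the 12 had the opposite sign in the mice without a recorded weight, where no gene was called. Dbp, named after its values were seen, had -3.64 with and 3.14 without a recorded weight. Others kept their sign, such as Hlf (-0.82 and -0.15). Of the growth hormone axis, which sets the male pattern of Cyp2d9, 11 of 12 genes were tested. edgeR and DESeq2 called 0, none had an unadjusted p under 0.05, the median was 0.05, and 1 was called lower and 1 higher in the mice with a recorded weight. The growth hormone receptor Ghr was at 552 CPM for VDS-F1 and 477 for VDD-F1 (-0.21, SE 0.12, adjusted p = 0.406).

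Of 17 tested genes known to be higher in male liver, Cyp2d9 aside, edgeR called 2 lower and 0 higher, the major urinary protein genes Mup1 (-3.32, SE 0.49) and Mup12 (-3.17, SE 0.46), each with an adjusted p of 0.0269. Mup genes are near-copies of each other, so these counts are uncertain. In this list 14 had lower means, 7 were lower at an unadjusted p under 0.05, DESeq2 called 4 lower, and the median was -0.51. The shares of all genes called lower by these rules were 0.0241% with edgeR, 6.29% unadjusted and 1.24% with DESeq2. In the mice with a recorded weight 8 were called lower and 2 higher, the latter Mup20 (0.77, adjusted p = 0.0136) and Serpina1e (0.94, adjusted p = 0.000834), named after their values were seen, against 5.12% and 5.85% of all genes. The third by p was Cyp7b1, an oxysterol hydroxylase (-1.68, SE 0.41, adjusted p = 0.0918). Of 24 genes known to be higher in female liver 10 were tested and edgeR called 0, with 3 higher at an unadjusted p under 0.05, against 9.55% of all genes, and 9 with higher means. DESeq2, which called 2.8% of all genes higher, called 1 of them higher, the steroid hydroxylase Cyp2a4, at 0.138 CPM for VDS-F1 and 21.4 for VDD-F1. In the mice with a recorded weight 4 of the 10 were called higher and 0 lower, against 5.85% and 5.12% of all genes.

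Of 91 other P450 genes 54 were tested. edgeR called 1, Cyp1a2, a P450 of pericentral hepatocytes, at 714 CPM for VDS-F1 and 281 for VDD-F1 (-1.35, SE 0.20, adjusted p = 0.0269). The median of the 54 was -0.07, with 32 lower and 22 higher means. At an unadjusted p under 0.05, 10 of the 54 were lower and 6 higher, against 6.29% and 9.55% of all genes. DESeq2 called 6 lower and 2 higher, against 1.24% and 2.8%, and in the mice with a recorded weight 12 were called lower and 7 higher, against 5.12% and 5.85%. Among 8 pericentral genes, all with lower means (median -0.46), edgeR called only Cyp1a2, DESeq2 called 2 lower, and 5 were called lower in the mice with a recorded weight (5.12% of all genes). Of 8 periportal genes (4 lower and 4 higher means, median 0.12) edgeR and DESeq2 called 0, with 1 higher at an unadjusted p under 0.05 (9.55% of all genes), and 3 were called higher in the mice with a recorded weight (5.85% of all genes). Of 8 genes of vitamin D metabolism and transport 5 were tested and edgeR and DESeq2 called 0. Cyp27a1 was at 446 CPM for VDS-F1 and 327 for VDD-F1 (-0.45, SE 0.16, adjusted p = 0.188), and was the only one of the 5 with an unadjusted p under 0.05. It was also the only one called in the mice with a recorded weight (-0.57, adjusted p = 0.000814). Cyp2r1, the main hepatic enzyme that hydroxylates vitamin D, was at 12.8 CPM for VDS-F1 and 13.1 for VDD-F1.

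Markers of other liver cells were also summed over all 12 mice. The summed level of 6 stellate cell markers was 183 to 478 CPM in VDD-F1 and 148 to 269 CPM in VDS-F1, and that of 6 cholangiocyte markers 23.9 to 116 CPM and 27.8 to 51.5 CPM. Means were higher in VDD-F1 for 5 of 6 stellate and 6 of 6 cholangiocyte markers. edgeR called none of either list, 3 of each were higher at an unadjusted p under 0.05 (9.55% of all genes), and DESeq2 called Col1a1 (adjusted p = 0.00825; 2.8% of all genes). Both sums were highest in VDD2, the mouse with the lowest Cyp2d9, Cyp2d10, Cyp2d22 and Cyp2d26, and both were lowest among VDD-F1 in VDD1. However, VDD3, not VDD1, was the highest VDD-F1 mouse for the same members. Among VDS-F1 both sums were highest in VDS1 (269 and 51.5 CPM), which was second highest of its group for Cyp2d9 and Cyp2d10. The sums of 6 macrophage markers (86.2 to 252 CPM and 129 to 246 CPM) and of 7 lymphocyte markers (0.603 to 9.86 CPM and 1.14 to 3.78 CPM) were highest in VDD2 too, while the 6 endothelial markers summed to 215 to 266 CPM and 206 to 291 CPM. Of these markers 1 for cholangiocytes (Cftr) and 6 for lymphocytes (all but Cd79a) were at 0 in at least 1 library. The 8 hepatocyte markers summed to 108795 to 126746 CPM in VDD-F1 and 92738 to 117561 CPM in VDS-F1. The part of cell makeup in the Cyp2d values was not tested, and in bulk tissue fewer cells of a type and less RNA per cell cannot be told apart.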

How the data were processed

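Per the study's methods and the labels, RNA was depleted of ribosomal RNA, made into stranded libraries and sequenced in pairs, and reads were aligned with STAR to mm10 (GRCm38) and counted on GENCODE M15 genes. The deposited values are the authors' raw counts per gene, with no normalization. STAR counts reads that map to a single place and a single gene. Rows that name no gene were left out, which were 2.52% to 11.1% (outside genes) and 1.33% to 2.13% (ambiguous) of fragments, besides unmapped (23.5% to 37.9%) and multimapping (6.69% to 8.92%) fragments. Column 4, the reverse-strand counts, was used, since it held 92.7% to 95.8% of stranded counts.

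Gene IDs without version were matched to GENCODE M21 (52489 of 52636). Genes whose mean count was 12 or more were kept (12453), after the study's methods. The main test was edgeR 4.0.16 (R 4.3.3), TMM factors and quasi-likelihood F test, with Benjamini-Hochberg adjustment over all genes kept and a call at an adjusted p under 0.05. DESeq2 1.42.0 and limma 3.58.1 were alternatives, with other filters, scalings, samples and covariates. The main test here is not the study's own DESeq2 test, and no fold threshold was used for calls. CPM values are counts scaled to a library of 1000000 on the genes kept and by TMM; log2 CPM for correlations had a prior count of 2. Level per kb divides by the union of annotated exons. The scripts were tested on simulated data with known changes. Promoter windows came from RefSeq, 250 bases before to 50 after each start, and were aligned with Biopython 1.88; Cyp2d22 and Cyp2d34 have no entry there.

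The members and the gene lists were chosen with earlier results of these data known. Besides the 7 members, the text names all other Cyp2d genes, from each list the called genes or those with the smallest p, and for each tested member the 3 genes with the highest r. A gene that this rule would name is not reported here.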

Additional observations from a re-analysis of the deposited data

Results flagged for a closer look

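Cyp2d26 in VDD3 stood apart from the other VDD-F1 mice. At 1051 CPM it was the highest of 6, and its gap to the next mouse was 0.689 of the group's range, above Dixon's critical value for 6 mice. It was the only flag among 10 groups of 6 mice examined at both ends, where chance flags about 1 in 20. The same mouse was also the highest VDD-F1 mouse for Cyp2d9, Cyp2d10 and Cyp2d22, where the gap was not past the critical value. Without VDD3, 1 of 5 members was called, Cyp2d9 (adjusted p = 0.0307, edgeR), and Cyp2d26 was not.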

How the results depend on the processing

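edgeR's count of 0 of 5 members called became 1 with limma's voom and quality weights (Cyp2d9), 5 in the 7 mice with a recorded liver weight, and 0 to 1 on leaving out each mouse in turn. Apart from these calls, the 5 tested members kept a negative log2-fold change and stayed uncalled under DESeq2, DESeq2's size factors, either other filter, counts ignoring the strand and the set covariate; 103 of 110 single values kept their side of the threshold and 7 passed it. The counts within the gene lists other than cell markers, a gene counting once per list, were 4 with edgeR, 17 with DESeq2 and 63 in the 7 mice. With the longest transcript as length, VDS-F1 levels per kb were 728 for Cyp2d9, 75.0 for Cyp2d22 and 515 for Cyp2d26. Causes were not tested. A fit with replicate number as a block called 0 of 5 members, with an adjusted p of 0.0843 for Cyp2d9 by edgeR. Same-numbered deviations had r from -0.08 to 0.10, and 0 of 6 mice correlated best with their own number. These values show no pairing by number but cannot exclude it. Over all genes, calls with edgeR were 5, with DESeq2 504, with voom 590, with the block 19, with the set covariate 28 and in the 7 mice 1366. Cyp2d11 and Cyp2d34 had too few counts for the main test, and the effect of depth on the other members was not tested.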
